A study of Rattus norvegicus with 6 samples.

Results

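The miR-99/100 family was described in exosomes, small vesicles that cells release, from rat mesenchymal stem cells. Its members were taken by name from the deposited table. The names miR-100-5p, miR-99a-5p, miR-99b-5p and miR-99b-3p gave 4 of the 763 mature miRNAs listed, and all 4 had reads in both groups. The opposite arms miR-99a-3p and miR-100-3p are also listed but are not members: miR-99a-3p had no read in any library and miR-100-3p had 1, in nicorandil replicate 3. Small RNA was sequenced from exosomes of wild-type mesenchymal stem cells of the cell line labelled RBMSC, collected from the culture supernatant with an isolation reagent. There were 3 libraries from cells that received no treatment and 3 from cells pretreated with 200 µM nicorandil for 24 h. Nicorandil, used against angina, is a potassium channel opener and a nitric oxide donor. The comparison asks how the exosomal miRNAs differ after this pretreatment. Since no label states separate cultures behind these libraries, p-values measure only the spread between these libraries, which may be technical.

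A miRNA is a short RNA that guides a silencing complex to messenger RNAs, mainly through its seed, the bases close to its 5′ end. The miR-99/100 family is among the oldest miRNA families of animals and is known for silencing growth genes, among them the kinase gene Mtor and the receptor gene Igf1r. Its genes lie beside genes of the let-7 and miR-125 families, whose members are known for roles in differentiation and in blood and immune cells. Each precursor hairpin can give a miRNA from its 5′ arm (5p) and another from its 3′ arm (3p), of which 1 arm is usually more abundant.

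The sequences are shown because the shared seed defines the family and because some members are close enough in sequence that short reads could be hard to assign. Of the 4 members 3, all but miR-99a-5p, were matched to a mature sequence in RefSeq (rat assembly GRCr8). Each is given 5′ to 3′ with the seed, bases 2 to 8, in capitals.
miR-99b-5p: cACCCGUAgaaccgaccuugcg
miR-100-5p: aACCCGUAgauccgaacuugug
miR-99b-3p: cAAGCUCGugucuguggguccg
Both 5p sequences carry the seed ACCCGUA and are 22 bases long. Among the 693 mature rat sequences of the table, 2 have these letters at bases 2 to 8 (0.289%), miR-99b-5p and miR-100-5p, and no other holds them anywhere. The mature miR-99a-5p is not among these 693, so the count is of the table and not of all rat miRNAs. miR-99b-3p, from the other arm of the miR-99b hairpin, has a seed of its own. Counted from the 5′ end of miR-100-5p, miR-99b-5p differs from it at 4 positions, A1C, U11A, A16C and U21C, all outside the seed.

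The 3 hairpins of the family are shown with the seed letters in capitals, on the strand that RefSeq gives as plus in GRCr8. Mir99a lies at chr11:29687392-29687472, Mir99b at chr1:67350064-67350133 and Mir100 at chr8:50798295-50798374.
Mir99a: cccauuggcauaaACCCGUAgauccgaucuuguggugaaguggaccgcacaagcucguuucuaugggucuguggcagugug
Mir99b: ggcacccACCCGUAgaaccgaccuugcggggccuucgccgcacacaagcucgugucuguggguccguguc
Mir100: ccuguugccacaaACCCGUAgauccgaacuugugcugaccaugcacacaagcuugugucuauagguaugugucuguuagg
Each hairpin holds the seed letters in its 5′ arm. The 22 bases of miR-100-5p lie in the Mir100 hairpin without a difference and in the Mir99a hairpin with 1, A16U, while the Mir99b hairpin differs at the same 4 positions as above. For the mismatches allowed in the authors' alignment the sources used here give no number, so reads of miR-99a-5p and miR-100-5p could have been split between them, and their separate values are uncertain to that extent.

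Few reads were counted, and fewer in untreated exosomes. Each untreated library had 2212 to 2338 miRNA reads and each nicorandil library 8426 to 16628, or 6774 and 41378 reads in all, a 6.11-fold difference. Depth thus moves with the treatment, and its part in the results was not tested. Counting agreed within sampling noise between untreated replicates 1 and 2 (chi-square test of their reads, p = 0.617) and between 1 and 3 (p = 0.174), while 2 and 3 differed (p = 0.0121). All 3 were kept as separate libraries. The chi-square tests of the nicorandil pairs gave p-values of 5.15e-13, 1.83e-55 and 6.52e-58, so those libraries differed beyond sampling noise, which intervals for counting error do not cover. At their lower depth the untreated pairs were less able to show such differences, so their higher p-values do not show that none exist. Of 8 mesenchymal marker miRNAs 7 had a read in untreated and 8 in nicorandil libraries, and together they took 26.7% to 27.4% and 25.6% to 30.6% of the reads. Summed over each list, markers of other cell types took a lower share in every nicorandil library than in any untreated one. Those of liver and gut (3 of 3 with reads) took 1.44% to 2.61% of the reads in untreated and 0.463% to 0.617% in nicorandil libraries. Endothelial markers (1 of 2 with reads, miR-126a-5p at 0) took 0.181% to 0.36% and 0.0301% to 0.0356%. Epithelial markers (4 of 5 with reads in each group) took 0.181% to 0.385% and 0.0119% to 0.0301%. Blood cell markers (5 of 8 with reads in each group, miR-144-5p and miR-150-5p at 0) took 0.678% to 0.854% and 0.263% to 0.415%. Single markers did not all follow these sums, and those with reads were not the same in both groups. Epithelial miR-429 and blood cell miR-142-3p had reads only in untreated libraries (2 and 1). Epithelial miR-141-3p and blood cell miR-144-3p had reads only in nicorandil libraries (1 each). In such bulk libraries fewer vesicles of a cell type and less of its RNA per vesicle cannot be told apart. The part of these markers in the results on the family was not tested.

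After nicorandil the 3 miRNAs from the 5′ arms rose, by 0.88 to 1.02 on the log2 scale, and the 3′ arm miRNA miR-99b-3p did not pass the test. The values are normalized reads as the authors deposited them, that is reads adjusted to 1 common effective library size, the total times a scaling factor. The factors were 1.12 to 1.27 in untreated and 0.84 to 0.87 in nicorandil libraries, so the deposited values sum to 4319 to 4856 and 6230 to 6505 and this sum moves with the treatment. limma was run on log2(value + 1) on 121 miRNAs, those whose mean value reached 1, with Benjamini-Hochberg adjustment over all of them. In this test 3 of the 4 members were called higher and none lower, against 17 of 121 miRNAs called higher in all (14.0%) and 9 called lower (7.44%). With library totals as the scale, none of the 4 was called. The median log2 fold change was 0.91 over the members and 0.23 over the 121. Every nicorandil library was above every untreated one for the same 3 members, against 21 of 121 miRNAs (17.4%), or 34 of 121 (28.1%) in either direction. The number of calls differed between scales, tests and sets of libraries. The split of 17 higher and 9 lower became 4 and 11 with library totals as the scale, 6 and 9 with the median of ratios, 7 and 9 with upper quartiles, 5 and 9 with DESeq2, 7 and 6 with the quasi-likelihood test of edgeR after filterByExpr, and 6 and 5 without nicorandil replicate 2.

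**Figure D1:**
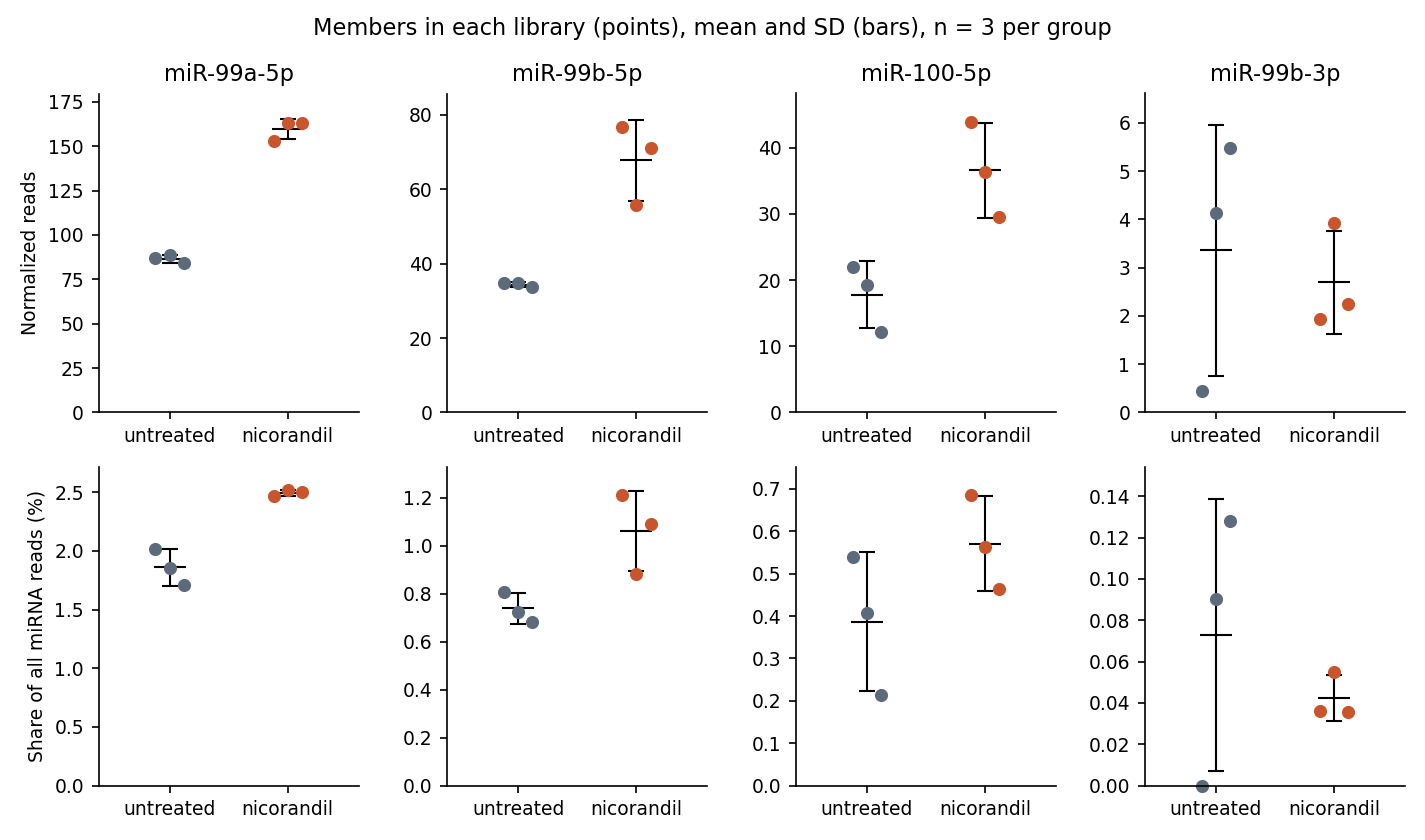
Normalized reads (top row) and share of all miRNA reads in percent (bottom row) of the 4 members in each library, with points for libraries and bars for the mean and SD of 3 libraries per group. The untreated and nicorandil points of miR-99a-5p and miR-99b-5p do not overlap in either row, those of miR-100-5p overlap in the share, and those of miR-99b-3p overlap in both.

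miR-99a-5p was the most abundant member in every library and the 10th most abundant of all miRNAs by mean value. Its normalized reads were 86.8, 88.6 and 84.1 in untreated libraries, against 153, 163 and 163 after nicorandil. The 3 nicorandil libraries all lay above the untreated ones. The mean went from 86.5 ± 2.26 to 160 ± 5.66 (SD, n = 3), 1.85-fold, a log2 fold change of 0.88 (SE 0.15, limma adjusted p = 0.00045). With library totals the log2 fold change was 0.42 and the call was lost (limma adjusted p = 0.0636). These values rest on 45, 41 and 40 reads in untreated libraries, against 410, 412 and 211 reads after nicorandil. Counting error at so few untreated reads is wider than the untreated SD of 2.26, so that SD does not measure precision. As a share of all miRNA reads miR-99a-5p took 2.02%, 1.85% and 1.71% of the untreated and 2.47%, 2.52% and 2.50% of the nicorandil libraries. The shares did not overlap, but the 95% Wilson interval of the highest untreated share, 1.52% to 2.70%, held all 3 nicorandil shares, so the depth of 1 untreated library does not separate them. The two-sided exact permutation test of the share gave p = 0.1. Nothing smaller is possible with 3 libraries a group, and adjusted over 18 shares and ratios it was 0.45.

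miR-99b-5p, the 5p miRNA of the hairpin that lies beside let-7e and miR-125a, was second among the members. Its normalized reads were 34.7, 34.7 and 33.7 in the untreated libraries and 76.7, 55.7 and 71.0 in the nicorandil libraries. All nicorandil values were higher, and replicate 2 was the lowest of them. The mean rose from 34.4 ± 0.57 to 67.8 ± 10.9 (SD, n = 3), 1.97-fold, a log2 fold change of 0.95 (SE 0.20, limma adjusted p = 0.00284). The call was lost with library totals (0.505, limma adjusted p = 0.137) and with DESeq2 (0.74, adjusted p = 0.0915). It had 18, 16 and 16 reads in untreated libraries, against 202, 144 and 92 after nicorandil. Counting error at these untreated reads is also wider than the untreated SD of 0.57. Of all miRNA reads it took 0.809%, 0.723% and 0.684%, against 1.21%, 0.882% and 1.09% after nicorandil. The groups did not overlap (exact permutation p = 0.1, adjusted 0.45), but the closest pair was not separated by counting error: 95% Wilson intervals ran from 0.75% to 1.04% at the lowest nicorandil share and from 0.513% to 1.28% at the highest untreated one.

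miR-100-5p was the third, with normalized reads of 22.0, 19.2 and 12.2 in untreated libraries, against 43.9, 36.3 and 29.6 after nicorandil. The groups did not overlap, though untreated replicate 3 and nicorandil replicate 3 were each the lowest of their group. The mean rose from 17.8 ± 5.07 to 36.6 ± 7.14 (SD, n = 3), 2.06-fold, a log2 fold change of 1.02 (SE 0.28, limma adjusted p = 0.0149). Only 12, 9 and 5 untreated reads stand behind it, against 114, 92 and 39 after nicorandil. Its share of all miRNA reads overlapped between the groups, at 0.540%, 0.407% and 0.214% against 0.686%, 0.564% and 0.463% (exact permutation p = 0.2, adjusted 0.514). Its call was lost without untreated replicate 3 (log2 fold change 0.79, limma adjusted p = 0.0547), without nicorandil replicate 1 (0.89, adjusted p = 0.0927) and without nicorandil replicate 2 (1.02, adjusted p = 0.0918), and over all alternatives its adjusted p ran from 0.00374 to 0.326. Summed to 1 row with miR-99a-5p, with which its reads could have been split, the pair had a log2 fold change of 0.91 (SE 0.15, limma adjusted p = 0.00016), an alternative chosen after seeing the data.

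miR-99b-3p was rare and did not pass the test. It had 0, 2 and 3 reads in untreated libraries, against 6, 9 and 3 after nicorandil, deposited as 0.454, 4.14 and 5.48 against 1.93, 3.92 and 2.24 normalized reads. Untreated replicate 1 thus has a deposited value above 0 without a read, since the authors' adjustment can lift a 0. The groups overlapped, with a log2 fold change of -0.02 (SE 0.68, limma adjusted p = 0.979), so at this depth neither a rise like that of miR-99b-5p nor a fall of the same size was detectable. Its sign was not stable: it was 0.18 with a pseudocount of 0.1 and 0.10 with upper-quartile scaling. Of all reads from the 2 arms of miR-99b, the 3p arm made up 5 of 55 in untreated exosomes, 9.09% (95% Wilson interval 3.95% to 19.6%), and 18 of 456 in nicorandil exosomes, 3.95% (2.51% to 6.15%). By library these shares were 0%, 11.1% and 15.8% against 2.88%, 5.88% and 3.16%, and the count of 0 among 18 reads in untreated replicate 1 allows up to 16.7%. The log2 ratio of the 5p to the 3p arm overlapped between the groups (3.28 ± 1.18 and 4.24 ± 0.64, SD, n = 3; exact permutation p = 0.3, adjusted 0.675). Its difference of 0.97 became 1.64 without untreated replicate 1 and 0.54 without untreated replicate 3. The 5p arm was the more abundant in every library.

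The rises of the 3 members from the 5′ arms were larger on the deposited scale than on the plain scale of library totals. With library totals the median over all tested miRNAs moved by -0.35 on the log2 scale, from 0.23 to -0.12, and the members moved with it. miR-100-5p was then at 0.61 and was not called (limma adjusted p = 0.326). Relative to the median of all tested miRNAs the 3 lay at 0.65, 0.72 and 0.79 on the deposited scale and at 0.54, 0.62 and 0.73 with library totals. DESeq2 called miR-99a-5p (0.65, adjusted p = 0.00956) but not miR-100-5p (0.80, adjusted p = 0.297). The authors' deposited table gives log2 fold changes of 0.88 for miR-99a-5p, 0.98 for miR-99b-5p, 1.05 for miR-100-5p and -0.30 for miR-99b-3p, with unadjusted p-values of 5.93e-09, 8.76e-05, 0.00234 and 0.823.

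**Figure D2:**
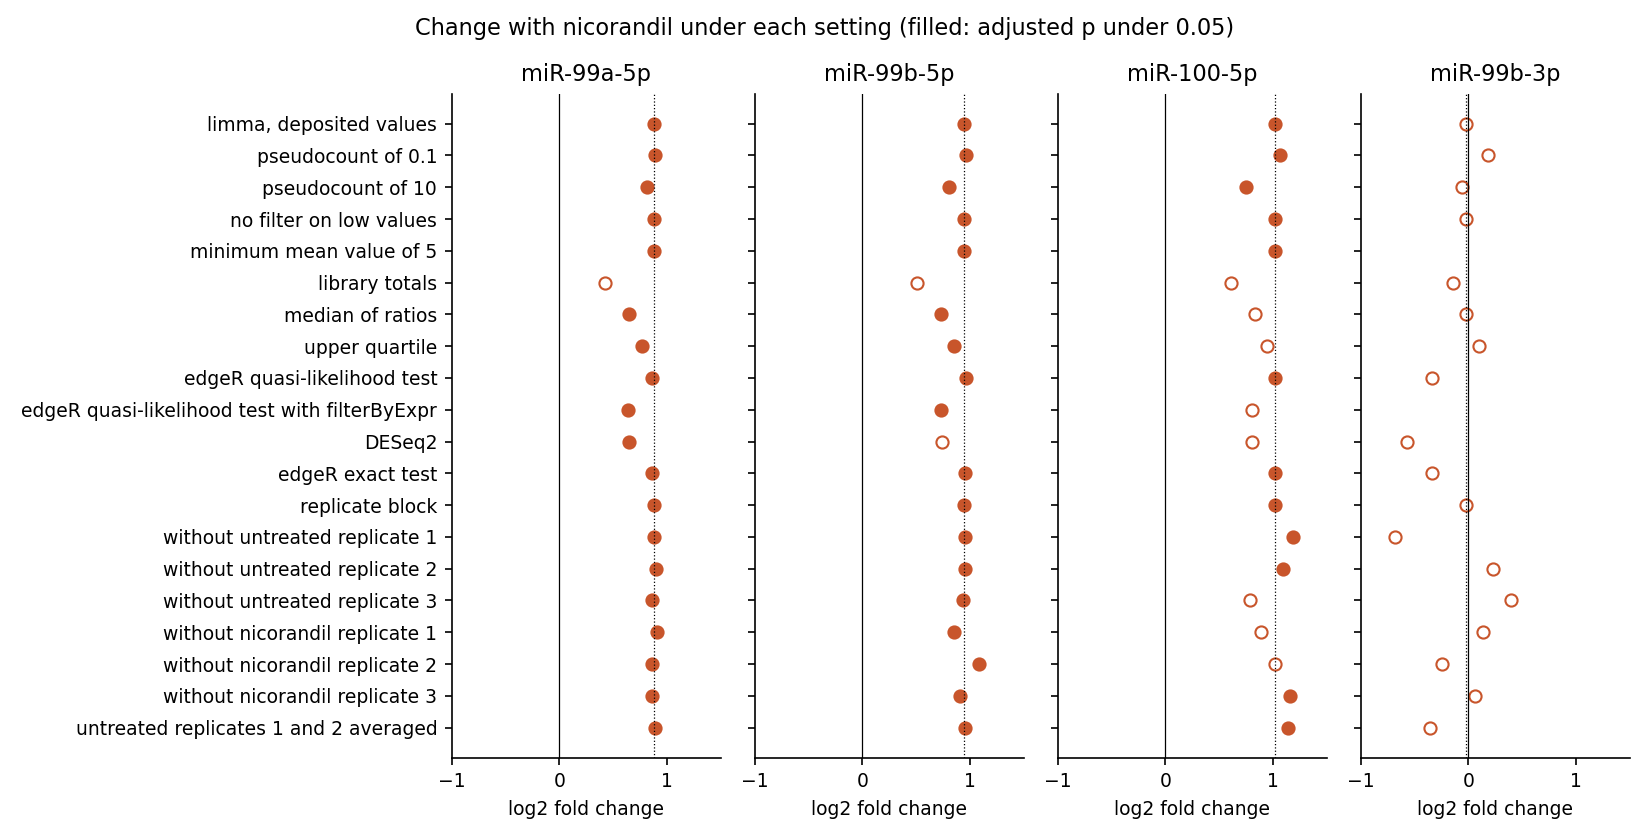
log2 fold change of each member (x axis, nicorandil over untreated) under each setting (y axis), filled where the adjusted p is under 0.05, with a dotted line at the value on the deposited scale. miR-99a-5p is filled in every setting shown but library totals, miR-99b-5p in all but library totals and DESeq2, and the points of miR-99b-3p lie on both sides of 0 and are all open.

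Together the 4 members took 3.37%, 3.07% and 2.74% of all miRNA reads in the untreated libraries and 4.40%, 4.02% and 4.09% in the nicorandil libraries. Every nicorandil library was above every untreated one, with means of 3.06% ± 0.32 and 4.17% ± 0.20 (SD, n = 3; exact permutation p = 0.1, the smallest possible, adjusted 0.45). A share is relative to the library's own total, the scale on which no single member was called.

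The makeup of the family differed less between the groups than the larger SD within a group. Among the reads of the 3 miRNAs from the 5′ arms, miR-99a-5p made up 60.0%, 62.1% and 65.6% in the untreated libraries, against 56.5%, 63.6% and 61.7%. miR-99b-5p made up 24.0%, 24.2% and 26.2% against 27.8%, 22.2% and 26.9%, and miR-100-5p 16.0%, 13.6% and 8.20% against 15.7%, 14.2% and 11.4%. All 3 shares overlapped between the groups, with differences in mean of -1.98, 0.82 and 1.16 percentage points (exact permutation p = 0.5, 0.8 and 0.7). The order was the same in all 6 libraries: miR-99a-5p above miR-99b-5p, miR-99b-5p above miR-100-5p, and miR-100-5p above miR-99b-3p. Within each group no neighbours in this order overlapped in normalized reads. The log2 ratio of miR-99b-5p to miR-99a-5p was -1.31 ± 0.02 in untreated and -1.24 ± 0.28 in nicorandil exosomes, and that of miR-100-5p to miR-99a-5p -2.26 ± 0.39 and -2.11 ± 0.32 (SD, n = 3). Neither ratio separated the groups (exact permutation p = 0.7 and 0.6). The untreated SD of 0.02 rests on 18, 16 and 16 reads of miR-99b-5p. Their counting error is wider, so this SD does not show a fixed ratio. A test that misses the threshold in 3 against 3 libraries does not show that the members moved alike.

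The miRNAs encoded beside the family were described next, since in GRCr8 the RefSeq gene table places Mir99b beside Mirlet7e and Mir125a, Mir99a beside Mirlet7c1 and Mir125b2, and Mir100 beside Mirlet7a-2 and Mir125b1. The distances were unlike: in the order named, 95 and 541 bases from Mir99b, 639 and 45099 from Mir99a, and 6828 and 51661 from Mir100. Of 11 miRNAs of these neighbours, both arms counted, 8 were tested, of which 1 was called higher, none lower and 7 were not called, with a median log2 fold change of 0.19. The share called higher among all tested miRNAs was 14.0%. The genes Mir3596a, Mir3596c and Mir3588, which the table also places beside the family, are not among the 11 and were not described. The one that rose was miR-125a-5p, a miRNA with roles in blood and immune cells, at 32.5, 27.1 and 33.0 normalized reads in untreated libraries, against 87.4, 70.7 and 69.1 after nicorandil (log2 change 1.27, SE 0.20, limma adjusted p = 0.000309). The log2 ratio of miR-99b-5p to miR-125a-5p was 0.16 ± 0.17 without and -0.16 ± 0.19 with nicorandil (SD, n = 3), and its values overlapped (exact permutation p = 0.2, adjusted 0.514). let-7e-5p, from the gene between them, had 3 reads in untreated and 15 in nicorandil exosomes, too few to compare.

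Beside miR-99a, let-7c-5p, of a family known for suppressing growth genes, did not pass the test. It had 75.0, 86.9 and 102 normalized reads in the untreated and 80.9 to 116 in the nicorandil libraries, which overlapped (log2 change 0.16, SE 0.18, limma adjusted p = 0.703). miR-99a-5p and let-7c-5p were at about the same level in untreated exosomes, with log2 ratios of 0.21, 0.03 and -0.28, and miR-99a-5p was the higher in all nicorandil libraries, at 0.91, 0.72 and 0.48. This ratio, taken within each library, went from -0.02 ± 0.25 to 0.70 ± 0.22 (SD, n = 3). Its groups did not overlap (exact permutation p = 0.1, adjusted 0.45). let-7c-5p is also made from the Mirlet7c2 gene, so its reads need not stem from the neighbour of Mir99a alone.

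miR-125b-5p, made from the genes Mir125b1 and Mir125b2 beside Mir100 and Mir99a, varied widely between nicorandil libraries. It had 45.0, 42.4 and 27.6 normalized reads in untreated libraries, against 67.9, 104 and 35.8 after nicorandil and was not called (log2 change 0.74, SE 0.30, limma adjusted p = 0.102). The ratios of miR-99a-5p and of miR-100-5p to it overlapped between the groups (exact permutation p = 0.8 and 0.5). let-7a-5p, which other genes than the neighbour of Mir100 also encode, was at 32.6, 32.5 and 58.6 against 53.8, 40.7 and 46.2 normalized reads, a log2 change of 0.23 (SE 0.24, limma adjusted p = 0.678). The log2 ratio of miR-100-5p to let-7a-5p was -0.54, -0.73 and -2.18 in untreated and -0.29, -0.16 and -0.62 in nicorandil libraries (exact permutation p = 0.2), and untreated replicate 3 was far below the others. Of the 3p miRNAs of these neighbours, miR-125b-1-3p had 66 reads in untreated and 325 in nicorandil exosomes and lay at 0.10 (limma adjusted p = 0.86). miR-125a-3p and miR-125b-2-3p had 33 and 8 reads in all and lay at 0.02 and -0.18. let-7e-3p had 2 reads, and let-7c-1-3p and let-7a-2-3p had none.

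**Figure D3:**
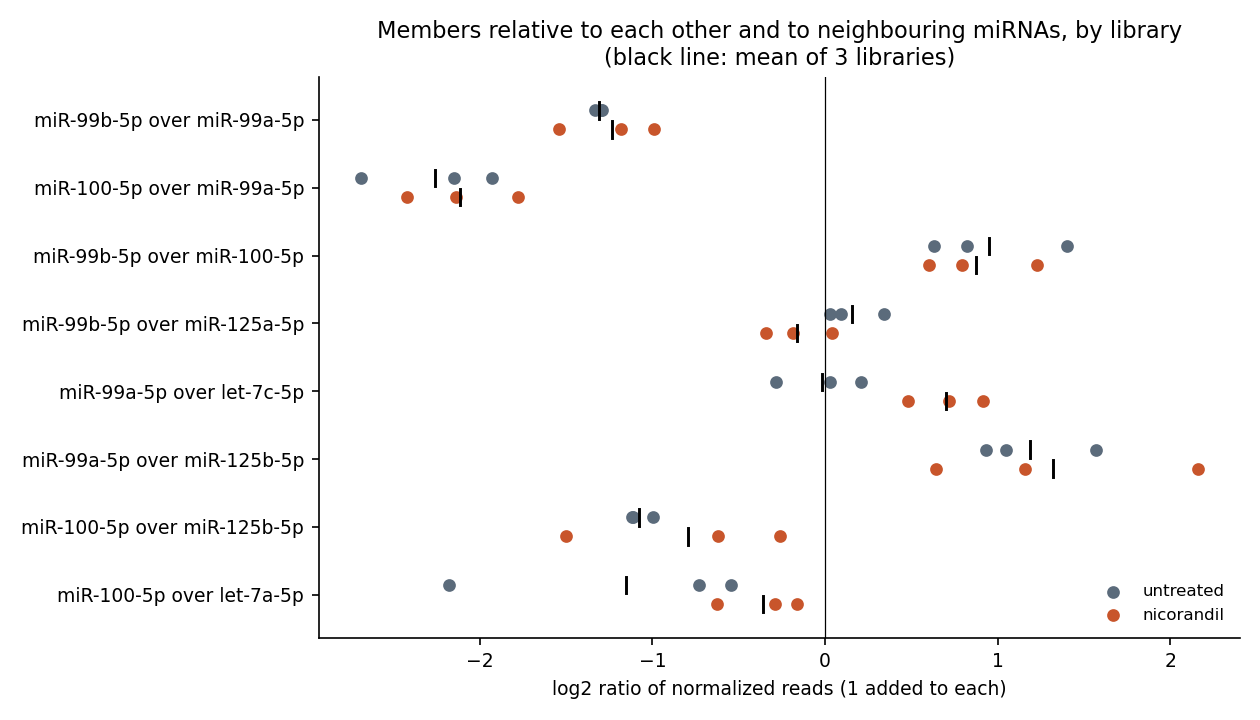
log2 ratio of normalized reads (x axis, 1 added to each value) for pairs of members and for members over neighbouring miRNAs, with a point per library and a black line at the mean of 3 libraries per group. The groups are apart only for miR-99a-5p over let-7c-5p, and the 3 ratios between members overlap.

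The miR-10 miRNAs resemble the family in sequence and are encoded within HOX gene clusters. They are shown with their seed, bases 2 to 8, in capitals, for comparison with the members.
miR-10a-5p: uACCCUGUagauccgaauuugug
miR-10b-5p: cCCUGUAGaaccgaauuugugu
The longest run that miR-100-5p shares with miR-10a-5p is GUAGAUCCGAA, 11 bases, and the longest that miR-99b-5p shares with miR-10b-5p is GUAGAACCGA, 10 bases. Neither carries the seed letters of the family. On the deposited scale miR-10b-5p rose, as did the 3 members from the 5′ arms. It went from 57.1 ± 4.56 to 93.6 ± 21.0 normalized reads (SD, n = 3), a log2 change of 0.68 (SE 0.19, limma adjusted p = 0.0188). Relative to library totals miR-10b-5p overlapped between the groups, at 1.21%, 1.31% and 1.15% in untreated and 1.15%, 1.55% and 1.69% in nicorandil libraries. miR-10a-5p fell, from 28.8, 30.1 and 54.4 to 1.79, 4.36 and 3.06 normalized reads, a log2 change of -3.24 (SE 0.39, limma adjusted p = 1.7e-05).

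**Figure D4:**
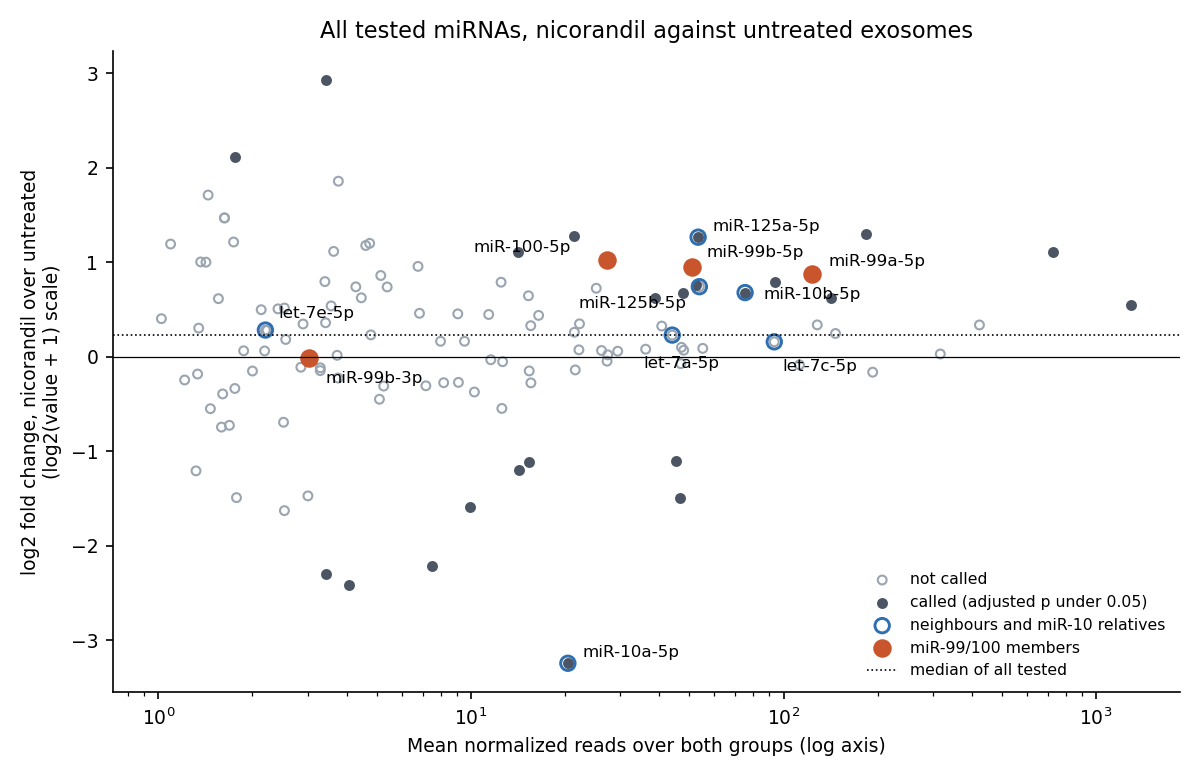
log2 fold change (y axis, log2(value + 1) scale) against mean normalized reads (log x axis) for the 121 tested miRNAs, with members in orange, neighbours and miR-10 relatives ringed in blue, and filled grey points for other calls. The 3 members from the 5′ arms lie between 0.88 and 1.02, above the dotted median of 0.23, miR-99b-3p lies at -0.02, and miR-10a-5p lies lowest at -3.24.

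The miRNAs most like each member over the 6 libraries were found by the root-mean-square difference of log2(value + 1) profiles, each centred on its mean, among the other 120 tested. For miR-99a-5p they were miR-674-3p (0.12), miR-148a-3p (0.15) and miR-99b-5p (0.16), against a median of 0.68 over all 120. For miR-99b-5p they were miR-222-3p (0.14), miR-99a-5p (0.16) and miR-674-3p (0.18), with a median of 0.69. For miR-100-5p they were miR-99b-5p (0.30), miR-99a-5p (0.30) and miR-674-3p (0.31), with a median of 0.77, so its nearest profiles were further away than those of the other members. miR-674-3p, a rodent miRNA, went from 36.4 ± 2.23 to 58.9 ± 1.90 normalized reads and miR-148a-3p from 462 ± 45.0 to 996 ± 46.3 (SD, n = 3). miR-222-3p, with 6 untreated and 59 nicorandil reads, was not called (log2 change 0.96, SE 0.46, limma adjusted p = 0.19). This likeness is a description over 6 libraries that share their depth difference.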

How the data were processed

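Small RNA of exosomes was measured in 3 untreated and 3 nicorandil libraries. FastQC, Bowtie and edgeR were used, per the submitters' processing notes; versions, genome build and miRNA annotation: not given in the sources used here. Per miRNA and library the authors deposited 1 normalized read signal, which had the form of edgeR pseudo-counts. That form was inverted and the result rounded to whole reads. Pseudo-counts recomputed from these reads matched 100% of the deposited values (relative tolerance 1e-05), with a largest difference of 4.8e-07. On these reads the quasi-likelihood test of edgeR called 21 miRNAs. The log2 fold changes and unadjusted p-values beside them are the authors', per the file headers.

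limma 3.58.1 with an intensity trend (R 4.3.3) was run on log2(value + 1), without covariates, on 121 miRNAs whose mean value reached 1. Calls needed an adjusted p (Benjamini-Hochberg) under 0.05. Fold changes on this scale understate the change of rare miRNAs. Shares used recovered reads, ratios deposited values plus 1, both with two-sided exact permutation tests adjusted over 18 quantities with scipy 1.17.1. Reads carry no molecular identifiers, so the Wilson intervals (95%) and limits for 0 reads (3 reads) cover counting error only. Alternatives were other scalings, filters, pseudocounts, edgeR 4.0.16, DESeq2 1.42.0, a replicate block and each library left out. Scripts were tested on simulated data. The members, the neighbours, the named miRNAs (members, their other arms, neighbours, miR-10 relatives and the 3 most alike) and the markers were chosen with earlier results of these data known.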

Additional observations from a re-analysis of the deposited data

How the results depend on the processing

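On the deposited scale 26 miRNAs were called; the numbers called, not necessarily among those 26, were 15 with library totals, 15 with the median of ratios, 16 with upper quartiles, 14 with DESeq2, 13 with the quasi-likelihood test of edgeR after filterByExpr and 11 to 21 without 1 library. miR-99a-5p was not called with library totals (0.42). It kept its call in the other 19 alternatives, which include its sum with miR-100-5p. miR-99b-5p kept its call in 17 of 19, the exceptions being library totals (0.505) and DESeq2 (0.74). miR-100-5p lost its call with library totals (0.61), the median of ratios (0.83), upper quartiles (0.95), filterByExpr (0.81) and DESeq2 (0.80), and in 3 of the 6 fits without 1 library, which gave 0.79 to 1.19. miR-99b-3p, not called anywhere, turned sign with a pseudocount of 0.1 (0.18) and upper quartiles (0.10), and lay between -0.68 and 0.40 without 1 library; it was not among the miRNAs kept by filterByExpr or by a minimum mean of 5. The cause of these losses was not tested.

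Of 141 alternative values of shares and ratios 9 turned direction, all without 1 library. Such fits gave a difference in family share of -3.48 to 0.0731 percentage points for miR-99a-5p, -0.26 to 2.54 for miR-99b-5p and -1.05 to 2.85 for miR-100-5p. The log2 ratios ran from -0.0533 to 0.22 for miR-99b-5p over miR-99a-5p, -0.0712 to 0.31 for miR-100-5p over miR-99a-5p, -0.25 to 0.15 for miR-99b-5p over miR-100-5p and -0.28 to 0.47 for miR-99a-5p over miR-125b-5p.

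Over all tested miRNAs, samples with the same replicate number did not deviate together (correlations of 0.01, 0.04 and -0.03). With so few reads per miRNA this cannot exclude that the numbers mark pairs. With the replicate number as a block the same number of miRNAs, 26, was called and no member's call changed. The SE of each member was smaller with the block, for miR-100-5p 0.21 against 0.28. Averaging untreated replicates 1 and 2, chosen after seeing the data, gave 21 calls and changed no member's call. The untreated depth, with 5 to 12 reads of miR-100-5p and 0 to 3 of miR-99b-3p per library, limits what can be said of these members.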
